A study of Mus musculus with 28 samples.

Results

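The genes described here are 10 mouse genes of glutathione and antioxidant metabolism, Gclm, Gclc, Srxn1, Txnrd1, Prdx1, Nqo1, Gsta3, Gpx3, Gpx1 and Gpx4. They were chosen by name, with their measured levels in these libraries known, and were found among 55487 gene IDs. All 10 were among the 13631 genes that passed a filter of at least 1 TPM (a length-corrected share of a library's transcripts) in at least 4 libraries. Because their levels were used to choose them, the values of these 10 genes are given as a description, without tests. The study sequenced poly(A) RNA from 28 libraries of wild-type mouse bone marrow-derived macrophages and asked how engulfment of dying regulatory (Treg) or conventional (Tconv) CD4 T cells relates to the macrophage transcriptome. The 7 groups held 4 libraries each. One group was kept for 48 h without a polarizing cytokine (M0). Under IFN-γ (50 ng/mL, 48 h), and likewise under IL-10 (50 ng/mL, 48 h), macrophages were sorted as non-phagocytic, Tconv-phagocytic or Treg-phagocytic. The T cells had been killed with ATP or NAD and carried a fluorescent CD4 antibody. The M0 labels name no T cells, uptake or sorting, so effects of cytokine, T cells and sort cannot be told apart in differences from M0. The labels do not say that replicates came from separate mice or cultures, and p-values then measure only the spread between these libraries. Phagocytic libraries are named by the dye and number in their titles. For the 8 Treg-phagocytic libraries the dye in the title disagreed with that in the library name.

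Glutathione is a tripeptide made by the glutamate-cysteine ligase, a dimer of the catalytic subunit GCLC and the modifier subunit GCLM, and then by glutathione synthetase. Glutathione peroxidases use it to reduce peroxides, glutathione transferases attach it to electrophiles, and the thioredoxin arm (thioredoxin reductase, peroxiredoxins and sulfiredoxin) reduces peroxides and oxidized proteins in parallel. Many of these genes are known targets of the transcription factor NRF2 (Nfe2l2), which KEAP1 marks for degradation until oxidants or electrophiles modify KEAP1, and which binds the antioxidant response element (ARE) with small MAF proteins. BACH1 is a heme-sensitive repressor at the same element. In macrophages these enzymes act beside the oxidative burst and, after engulfment, beside the handling of iron and lipids from the ingested cell.

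The ARE core was searched as TGACNNNGC or TGAGNNNGC on both strands of the 250 bases before each RefSeq start site (GRCm38.p6). It was present in 5 of the 14 windows of the 9 genes with an entry, in 1 window each of Gclm, Gsta3, Prdx1, Txnrd1 and Srxn1, which held 2 copies. Of all 32851 windows of that length, 23.0% held the core, and nothing is read from the difference. The stretches around the core are shown for the ligase modifier and for 3 genes of the thioredoxin arm, whose levels lay higher in M0 than in both non-phagocytic cytokine groups, with the core in capitals and read 5′ to 3′ on the plus strand.
Srxn1, chr2:152105336-152105507: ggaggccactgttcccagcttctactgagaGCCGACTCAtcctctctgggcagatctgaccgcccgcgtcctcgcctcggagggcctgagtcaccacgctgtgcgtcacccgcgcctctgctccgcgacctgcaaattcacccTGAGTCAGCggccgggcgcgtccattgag
Txnrd1, chr10:82859084-82859142: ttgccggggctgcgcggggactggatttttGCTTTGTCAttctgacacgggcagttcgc
Prdx1, chr4:116685436-116685494: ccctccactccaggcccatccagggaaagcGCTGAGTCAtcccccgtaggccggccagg
Gclm, chr3:122245393-122245451: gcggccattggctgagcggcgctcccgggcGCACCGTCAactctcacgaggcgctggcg
The cores began 158 and 45 bases before the start site in Srxn1, 92 in Txnrd1, 133 in Prdx1 and 134 in Gclm. In Prdx1, and in 1 of the 2 copies of Srxn1, the core overlapped an AP-1 motif (TGANTCA), which 6.75% of all windows held. Gpx1, Gpx3, Gpx4 and Nqo1 had no ARE core in this window, which says only that these letters are not there. Gsta3, with a core not shown, and Gpx3 and Nqo1, without one, also lay higher in M0 than in both non-phagocytic cytokine groups. No link between core and level is read here.

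A shared sequence feature divides the set in another way: 4 of the 10, Gpx1, Gpx3, Gpx4 and Txnrd1, encode selenoproteins. A TGA codon, which elsewhere ends translation, is read as selenocysteine in their messages. It lies at codon 47 of 201 in Gpx1-201, 73 of 226 in Gpx3-201, 129 of 253 in Gpx4-201 and 498 of 499 in Txnrd1-201 (GENCODE M21 transcripts). Other transcripts of these genes were not read, and the codon number may differ in them. The 27 bases around it are shown with that codon in capitals, because its place differs between the peroxidases and the reductase.
Gpx1: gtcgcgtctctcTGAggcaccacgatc
Gpx3: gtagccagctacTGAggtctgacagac
Gpx4: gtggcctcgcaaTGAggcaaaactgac
Txnrd1: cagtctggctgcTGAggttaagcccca
The 3 peroxidases carry the codon inside the chain and Txnrd1 carries it as the last but 1 of its codons.

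The files give no read totals. With the deepest library, in M0, set to 100%, the relative depth read from the spacing of low values was 68.8% or more in M0. It ran from 49.2% to 91.9% under IL-10 and from 11.1% to 23.8% under IFN-γ, where low genes are measured less precisely. Macrophage markers (8 genes) summed to 16443 TPM or more in each library, and none of the T cell or stromal markers was at 0 throughout a group. The 10 T cell markers summed to 273 to 449.6 TPM in IFN-γ non-phagocytic, 314 to 407 in IFN-γ Tconv-phagocytic and 334 to 499.6 in IFN-γ Treg-phagocytic libraries, against 23.9 to 72.8 in M0. In the IL-10 libraries the sums were 43.6 to 52.8 (non-phagocytic), 60.3 to 87.1 (Tconv) and 100.1 to 122 TPM (Treg). The 5 stromal markers, Col1a1 among them, summed to 92.3 to 109 TPM in M0, 66.2 to 72.5, 125 to 129.9 and 22.6 to 26.3 TPM in the IL-10 non-phagocytic, Tconv and Treg groups, and at most 5.79 TPM under IFN-γ. The 3 IL-10 response genes checked (Socs3, Il4ra, Il10ra) summed to 405 TPM or more under IL-10 and to 137 TPM or less elsewhere. The part that RNA of other cells takes in the differences below was not tested. In bulk samples, fewer cells of a type and less RNA per cell cannot be told apart. Fold changes are differences of log2(scaled TPM + 1) with their standard errors. Changes are relative to the scaling. Without it the median difference over all genes was -0.24 for IFN-γ non-phagocytic against M0 libraries and -0.26 against IL-10 non-phagocytic ones, where it was 0.013 and 0.014 with it.

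In deposited TPM, M0 macrophages held the highest mean level of 8 of the 10 genes, all but Gpx1 and Gpx4. After scaling Prdx1 was no longer among the 8. The largest spans over the 7 group means of deposited TPM were 4.42-fold for Gsta3 and for Nqo1, 4.04-fold for Srxn1 and 3.78-fold for Gpx3. The smallest were 1.22-fold for Gpx4 and 1.38-fold for Gpx1. For 9 genes the deposited TPM of all 4 IFN-γ non-phagocytic libraries lay below all 4 M0 libraries, and Gpx1 overlapped. Such separation downward was found for 38.2% of all genes tested. Between IL-10 non-phagocytic and M0 libraries 9 genes were again lower without overlap, all but Gpx4, where 13.1% of all genes were. The 2 comparisons share the M0 libraries, and the genes were chosen with these levels known, so nothing is read from these counts.

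**Figure D1:**
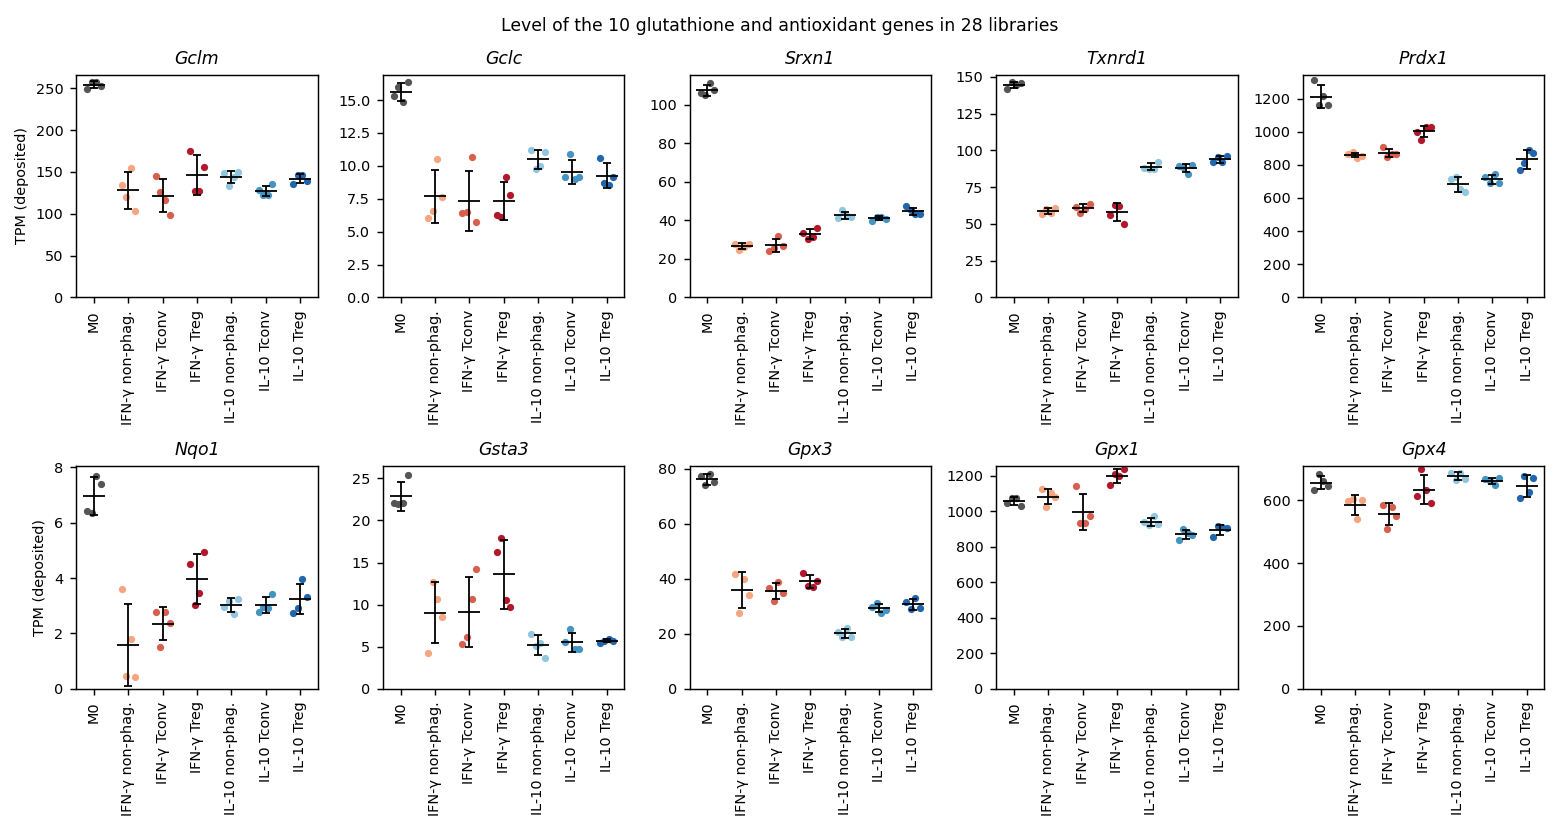
Deposited TPM (vertical axes, from 0) of the 10 genes in 28 libraries of 7 groups, with points for libraries and the mean ± SD of 4. M0 lies above every other group for 8 genes, while Gpx1 and Gpx4 span 1.38-fold and 1.22-fold over the group means.

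Both subunits of the glutamate-cysteine ligase were highest in M0. Gclm (ENSMUSG00000028124, chr3:122245557-122270732, plus strand) encodes the modifier subunit that makes the ligase efficient. Its M0 libraries held 249.7, 258, 258 and 253 TPM, IFN-γ non-phagocytic libraries 134, 119.7, 155 and 103 TPM and IL-10 non-phagocytic libraries 148, 133, 144 and 149.9 TPM. Every M0 library was above every cytokine library, and the cytokine groups overlapped each other. The difference from M0 was -0.69 ± 0.10 under IFN-γ and -0.84 ± 0.038 under IL-10. Gclc (ENSMUSG00000032350, chr9:77754535-77794485, plus strand) encodes the catalytic subunit. M0 libraries held 15.3, 16, 14.9 and 16.4 TPM, IFN-γ non-phagocytic ones 6.0, 6.57, 10.6 and 7.66 TPM and IL-10 non-phagocytic ones 11.2, 9.78, 10.02 and 11 TPM. Gclc was below M0 in both (-0.68 ± 0.15 and -0.54 ± 0.06), without overlap, and its TPM lay far under those of Gclm in each group. Gm6061, annotated on the same strand at the Gclm locus, could share reads with Gclm. Gm17494, on the opposite strand there, could do so only if the counting ignored the strand. That setting is not given in the sources used here.

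Srxn1, Txnrd1 and Prdx1 were also highest in M0 in deposited TPM, with the cytokines in different order. Srxn1 (ENSMUSG00000032802, chr2:152105516-152111376, plus strand) encodes sulfiredoxin, which repairs over-oxidized peroxiredoxins. It was at 106, 105, 111 and 107 TPM in M0, 27.5, 24.6, 26.3 and 27.9 TPM in IFN-γ non-phagocytic and 41.3, 45.2, 42.2 and 42 TPM in IL-10 non-phagocytic libraries. The 3 groups did not overlap, with M0 highest and IFN-γ lowest. The difference from M0 was -1.67 ± 0.056 under IFN-γ and -1.33 ± 0.036 under IL-10, and IFN-γ lay -0.35 ± 0.065 from IL-10 (-0.66 without scaling). Txnrd1 (ENSMUSG00000020250, chr10:82833951-82897712, plus strand), the cytosolic thioredoxin reductase, was at 142, 147, 145 and 146 TPM in M0. It was at 56.8, 60.0, 57.4 and 60.5 TPM under IFN-γ and 88.1, 87.2, 87.5 and 92.4 TPM under IL-10, both non-phagocytic. The order M0, IL-10, IFN-γ was that of Srxn1, again with no overlap, and the differences from M0 were -0.98 ± 0.041 (IFN-γ) and -0.72 ± 0.027 (IL-10). Gm38560, Gm47073 and Eid3 overlap the Txnrd1 locus in the annotation. Prdx1 (ENSMUSG00000028691, chr4:116685544-116700822, plus strand), an abundant peroxiredoxin that reduces hydrogen peroxide with electrons from thioredoxin, had the other order. It held 1311, 1161, 1218 and 1158 TPM in M0, 866, 875, 843 and 855 TPM in IFN-γ non-phagocytic and 712, 729, 654 and 633 TPM in IL-10 non-phagocytic libraries. IL-10 was lowest here and none of the groups overlapped. The differences from M0 were -0.18 ± 0.04 under IFN-γ (-0.49 without scaling) and -0.85 ± 0.053 under IL-10. After scaling M0 was not the highest group for Prdx1, since IFN-γ Treg-phagocytic libraries stood 0.29 ± 0.037 above the IFN-γ non-phagocytic ones.

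The quinone reductase and the alpha-class transferase were the lowest-expressed members beside Gclc. Nqo1 (ENSMUSG00000003849, chr8:107388225-107403206, minus strand) encodes a quinone reductase that is a widely used NRF2 target. It was low throughout: 6.41, 6.36, 7.68 and 7.42 TPM in M0, 3.6, 0.47, 1.81 and 0.43 TPM in IFN-γ non-phagocytic and 2.96, 3.18, 2.69 and 3.25 TPM in IL-10 non-phagocytic libraries. M0 was above all others, while the IFN-γ libraries ranged on both sides of the IL-10 ones. At the relative depth found, the IFN-γ non-phagocytic values rest on roughly 1.98 to 13.6 reads a library, against 90.6 to 152 in M0, so the difference of -1.58 ± 0.37 is imprecise. That of IL-10 from M0 was -0.98 ± 0.086. Gsta3 (ENSMUSG00000025934, chr1:21240589-21265661, plus strand) encodes an alpha-class glutathione transferase, and Gm28836 lies antisense to it. It held 22, 21.9, 22.1 and 25.4 TPM in M0, 4.22, 12.6, 10.7 and 8.57 TPM in IFN-γ non-phagocytic and 6.49, 5.03, 5.48 and 3.7 TPM in IL-10 non-phagocytic libraries. Both cytokine groups were below M0 (-1.05 ± 0.27 under IFN-γ and -1.96 ± 0.13 under IL-10), and 3 of 4 IFN-γ libraries were above all IL-10 ones.

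Of the glutathione peroxidases, Gpx3 varied most with the cytokine, while Gpx1 and Gpx4 stayed within narrower ranges of deposited TPM. Gpx3 (ENSMUSG00000018339, chr11:54902453-54910377, plus strand), the secreted peroxidase, was at 77.3, 74, 78.1 and 75.2 TPM in M0, 41.9, 27.6, 39.8 and 34.3 TPM in IFN-γ non-phagocytic and 20.8, 18.9, 22.2 and 18.8 TPM in IL-10 non-phagocytic libraries. The 3 groups were apart with IL-10 lowest, -1.88 ± 0.055 from M0, and IFN-γ at -0.78 ± 0.12. Gpx1 (ENSMUSG00000063856, chr9:108338903-108340343, plus strand), the abundant cytosolic peroxidase, was at 1045, 1076, 1073 and 1031 TPM in M0, 1124, 1022, 1102 and 1079.7 TPM in IFN-γ non-phagocytic and 939, 923, 974 and 931 TPM in IL-10 non-phagocytic libraries. M0 and IFN-γ overlapped in TPM and IL-10 was below both. After scaling, IFN-γ stood 0.34 ± 0.035 from M0, or 0.034 without scaling, and 0.53 ± 0.035 from IL-10 (0.20 without scaling). Gpx4 (ENSMUSG00000075706, chr10:80047166-80056439, plus strand) reduces lipid hydroperoxides in membranes and guards against ferroptosis. It was at 635 to 684 TPM in M0, 540.1 to 603 TPM in IFN-γ non-phagocytic and 667 to 689 TPM in IL-10 non-phagocytic libraries. Its direction under IFN-γ depended on the scale: deposited TPM were lower than M0 in all 4 libraries, the scaled difference was 0.14 ± 0.047, and without scaling it was -0.17. An annotated pseudogene, Gpx4-ps2, could share its reads.

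**Figure D2:**
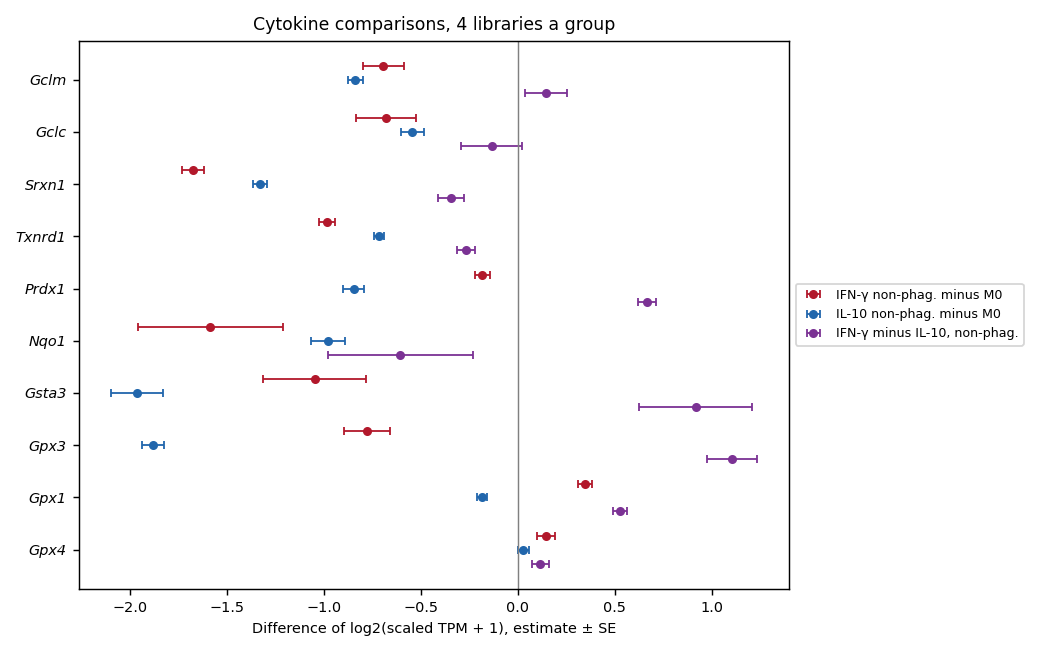
Differences of log2(scaled TPM + 1) for the 10 genes (horizontal axis, estimate ± SE, 4 libraries a group) between non-phagocytic IFN-γ or IL-10 libraries and M0, and between the cytokines. Srxn1 under IFN-γ lies at -1.67 and Gsta3 under IL-10 at -1.96, and Gpx4 changes sign under IFN-γ without scaling (0.14 to -0.17).

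Between the cytokines, 3 of the 10 genes were higher without overlap in IFN-γ than in IL-10 non-phagocytic libraries, Gpx1, Gpx3 and Prdx1, where 16% of all genes were. Srxn1, Txnrd1 and Gpx4 were lower without overlap, where 38% of all genes were, and Gclc, Gclm, Gsta3 and Nqo1 overlapped. The differences were 1.10 ± 0.13 for Gpx3 (0.79 without scaling), 0.66 ± 0.046 for Prdx1 (0.34) and -0.27 ± 0.046 for Txnrd1 (-0.59). For Gpx4 it was 0.12 ± 0.043 after scaling and -0.21 without, and for Gclm 0.14 ± 0.11 after scaling and -0.18 without.

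In IFN-γ macrophages the comparison of Treg- with Tconv-phagocytic libraries asks whether the kind of engulfed T cell goes with a different level. Gpx1, Gpx4, Prdx1 and Nqo1 were higher in all 4 Treg-phagocytic libraries than in any Tconv-phagocytic one, and none of the 10 was lower without overlap. Over all genes tested, 4.01% were separated upward and 13.7% downward. Prdx1 stood at 998, 953, 1027 and 1027 TPM in Treg-phagocytic and 905, 847, 868 and 864 TPM in Tconv-phagocytic libraries. Gpx1 stood at 1146, 1211, 1198 and 1236 TPM in Treg-phagocytic and 1143, 934, 936 and 972 TPM in Tconv-phagocytic libraries. Its separation was narrow, since the Tconv library BV421-1, at 1143 TPM, came just under the lowest Treg library, at 1146 TPM. Gpx4 was at 593 to 701 TPM against 509 to 586 TPM. The estimated differences were 0.32 ± 0.043 for Prdx1, 0.39 ± 0.078 for Gpx1 and 0.31 ± 0.067 for Gpx4, and 0.20, 0.27 and 0.19 without scaling. Nqo1 was at 4.5, 3.01, 3.45 and 4.96 TPM against 2.76, 1.5, 2.78 and 2.37 TPM, a difference of 0.68 ± 0.22 on values that rest on roughly 6.78 to 18.6 reads a library.

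The other 6 genes overlapped between these groups. Srxn1 was at 33.6, 30.6, 31.5 and 36.1 TPM in Treg-phagocytic and 24.2, 25.8, 31.7 and 26.4 TPM in Tconv-phagocytic libraries, so a single Tconv library, Ax647-1, reached into the Treg range. Its difference was 0.40 ± 0.10. Gsta3 was at 16.2, 17.9, 10.5 and 9.74 against 5.3, 6.17, 10.7 and 14.2 TPM, with 2 Treg libraries above all others and a wide error, 0.70 ± 0.32. Gclm (0.39 ± 0.15) and Gpx3 (0.25 ± 0.079, 0.13 without scaling) likewise had 2 Treg libraries above the Tconv range. Gclm ranged from 127 to 175 TPM in Treg-phagocytic and from 98.1 to 145 TPM in Tconv-phagocytic libraries. Gclc, at 6.1 to 9.15 and 5.77 to 10.7 TPM, and Txnrd1, at 50.1 to 63.2 and 57.1 to 63.7 TPM, had estimates within their errors (0.12 ± 0.22 and 0.049 ± 0.082). All 10 estimates were above 0, and without scaling Txnrd1 was at -0.068 and the other 9 kept their sign. Their median was 0.35 (0.23 without scaling), against 0.035 (-0.058) over all genes tested.

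The same Treg-phagocytic libraries were also set against non-phagocytic IFN-γ libraries, and 3 of the genes were higher without overlap. These were Gpx1, Prdx1 and Srxn1, where 3.9% of all genes were, and their differences were 0.22 ± 0.047, 0.29 ± 0.037 and 0.37 ± 0.085 (0.15, 0.22 and 0.30 without scaling). Nqo1 had the largest estimate, 1.21 ± 0.41, and overlapped because a non-phagocytic library held 3.6 TPM. Tconv-phagocytic and non-phagocytic IFN-γ libraries overlapped for all 10 genes, where 3.66% of all genes were separated. The estimates there ran from -0.17 ± 0.074 for Gpx1 to 0.53 ± 0.40 for Nqo1, and those of Gpx3, Gsta3, Prdx1 and Srxn1 turned from just below 0 to just above it without scaling. Treg-phagocytic libraries also stood apart from both other IFN-γ groups in other genes. The sum of 4 IFN-γ response genes, Gbp2, Irf1, Cxcl9 and Ciita, was 146 to 223 TPM there, against 385 to 572 TPM in Tconv-phagocytic and 429.7 to 514 TPM in non-phagocytic libraries, and 51.5 to 63.2 TPM in M0. Macrophage markers summed to 20693 to 21196 TPM against 16443 to 18782 and 17085 to 17784 TPM, and the lowest relative depth was 11.1% in this group. The part of these in the differences was not tested.

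In IL-10 macrophages, Prdx1, Srxn1 and Txnrd1 were higher in all 4 Treg-phagocytic than in all 4 Tconv-phagocytic libraries, where 3.89% of all genes were, and 7 genes overlapped. All 3 belong to the thioredoxin arm, but the genes were chosen with their levels known and nothing is read from that. The differences were small. Among 15 other genes of thioredoxin and glutaredoxin, 9 lay above 0 and 6 below in this comparison, with a median of 0.0059. Among 9 other genes of peroxide and superoxide removal, 8 lay above 0 and 1 below, with a median of 0.072. Prdx1 was at 766, 808, 889 and 874 TPM against 726, 690.2, 742 and 691 TPM, or 0.23 ± 0.049. Srxn1 was at 47.2, 45.3, 43.3 and 43.5 TPM against 39.7, 42, 41.8 and 40.6 TPM, or 0.13 ± 0.04. Txnrd1 was at 92.1, 95.8, 91.9 and 96.2 TPM against 89.2, 89, 83.8 and 90.2 TPM, or 0.10 ± 0.032. The gap between the groups was under 2 TPM for Srxn1 and for Txnrd1. Gclm had 3 Treg libraries above the Tconv range (0.16 ± 0.041), and Gpx1, Gpx3, Gpx4, Gclc, Gsta3 and Nqo1 had estimates from -0.04 ± 0.089 (Gclc) to 0.071 ± 0.11 (Nqo1).

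Gpx3 showed the clearest step with uptake under IL-10, and it did so for both kinds of T cell. Non-phagocytic libraries held 20.8, 18.9, 22.2 and 18.8 TPM, Tconv-phagocytic ones 29.6, 31.2, 27.7 and 28.7 TPM and Treg-phagocytic ones 31.7, 28.9, 33.1 and 29.3 TPM. Every phagocytic library was above every non-phagocytic one, with differences of 0.60 ± 0.063 for Tconv and 0.66 ± 0.069 for Treg, while the phagocytic groups overlapped. The non-phagocytic libraries are shared by these comparisons. Under IFN-γ the same contrasts for Gpx3 gave -0.042 ± 0.13 (Tconv) and 0.21 ± 0.13 (Treg), with overlap. Prdx1 was higher without overlap in IL-10 Treg-phagocytic libraries (0.37 ± 0.059) and overlapped in Tconv-phagocytic ones (0.15 ± 0.048, 0.064 without scaling). Higher without overlap were thus 2 genes for Treg uptake, Gpx3 and Prdx1, against 5.41% of all genes, and 1 for Tconv uptake, Gpx3, against 3.64%. Gpx1 was lower in deposited TPM without overlap in both, as were 16.2% and 13.3% of all genes. Its scaled differences were 0.011 ± 0.028 (-0.073 without scaling) and -0.033 ± 0.027 (-0.11 without scaling). The stromal marker sum and the T cell marker sum also differ between these IL-10 groups, as given above, and their part was not tested.

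**Figure D3:**
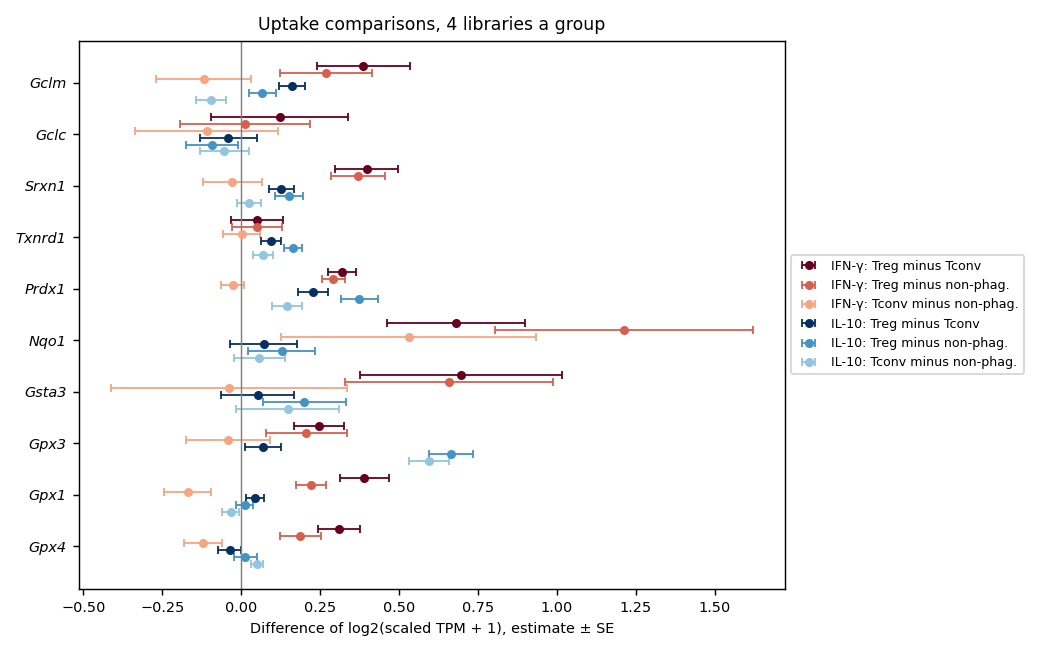
Differences of log2(scaled TPM + 1) for the 10 genes (horizontal axis, estimate ± SE, 4 libraries a group) between Treg-phagocytic, Tconv-phagocytic and non-phagocytic libraries under each cytokine. The IFN-γ Treg minus Tconv estimates all lie above 0 (Txnrd1 falls to -0.068 without scaling), and Gpx3 under IL-10 lies at 0.60 and 0.66 against non-phagocytic libraries.

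The Treg minus Tconv difference under IFN-γ minus that under IL-10 was 0.35 ± 0.077 for Gpx4 (0.23 without scaling), 0.35 ± 0.084 for Gpx1 (0.23) and 0.27 ± 0.11 for Srxn1 (0.16). For Nqo1 and Gsta3 it was 0.61 ± 0.25 and 0.64 ± 0.35, with wide errors. For Prdx1 it was 0.091 ± 0.067 and turned to -0.025 without scaling, and for Txnrd1 it was -0.047 ± 0.09 (-0.16 without scaling). As with the other values of these genes, no test is attached.

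In the order of the 7 group means of deposited TPM, M0 was separated from its neighbour for Gclm, Gclc, Srxn1, Txnrd1, Prdx1, Nqo1, Gsta3 and Gpx3. For Srxn1 and Txnrd1 the 3 IL-10 groups came next and the 3 IFN-γ groups last, and the neighbouring IL-10 and IFN-γ groups did not overlap. Within each cytokine the neighbours in that order overlapped. For Srxn1 this split of the cytokines was not kept after scaling. IFN-γ non-phagocytic libraries lay -0.35 from IL-10 non-phagocytic ones, and IFN-γ Treg-phagocytic libraries lay 0.37 above the IFN-γ non-phagocytic ones. For Gsta3 the IFN-γ groups came after M0 and the IL-10 groups last, with overlap between all neighbours below M0. Prdx1 and Gpx3 also placed the IFN-γ groups above the IL-10 groups, although the neighbouring IFN-γ and IL-10 groups overlapped for both genes. For Gclm, Gclc and Nqo1 every neighbouring pair below M0 overlapped, and for Gpx4 every pair did. Across the 28 libraries, Pearson's r of log2 values was 0.92 between Srxn1 and Txnrd1 and 0.88 between Gpx3 and Prdx1, and it was lowest, -0.48, between Gpx1 and Txnrd1. The genes most like each member by the same measure included Cat (0.97) for Srxn1 and Pgd (0.96) for Txnrd1. Ly9 (0.96) came first for Prdx1, Lipa (0.95) for Gpx3, Arih1 (0.96) for Gpx1 and Atp6v0d2 (0.90) for Gclm. These r values are descriptions over 28 libraries that share 7 groups, in which depth also follows the cytokine.

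Other genes of the pathway were taken from 7 lists, of whose 102 genes outside the 10 above 84 passed the filter. In IFN-γ non-phagocytic against M0 libraries 24 rose and 28 fell (limma, Benjamini-Hochberg adjusted p under 0.05), when 27.7% and 25% of all genes did. Without scaling the split was 12 and 46, and with correction for GC content and length 17 and 36. Of all 13631 genes 3780 rose and 3405 fell, or 2560 and 5572 without scaling. Among 9 genes of peroxide and superoxide removal 7 rose and 2 fell (4 and 2 without scaling), among 15 of the thioredoxin and glutaredoxin list 8 rose and 2 fell (5 and 5 without scaling), and among 13 other NRF2 targets 2 rose and 8 fell (0 and 11 without scaling). The median differences were 0.40, 0.35 and -0.40, against 0.013 over all genes tested. Without scaling they were 0.097, 0.048 and -0.69, against -0.24. Catalase (Cat), which breaks down hydrogen peroxide, fell most of the removal genes, from 442 ± 12.6 TPM (SD, n = 4) to 126 ± 10.3 TPM (-1.50 ± 0.058, adjusted p = 1.74e-07). Superoxide dismutase Sod1 rose (0.66 ± 0.033, adjusted p = 7.57e-07), as did thioredoxin Txn1 (0.88 ± 0.07, adjusted p = 1.27e-05) and Prdx2 (0.73 ± 0.086, adjusted p = 0.000136). Glutathione reductase Gsr (-0.94 ± 0.14, adjusted p = 0.000514), the pentose phosphate enzyme Pgd (-1.25 ± 0.043, adjusted p = 1.03e-07), heme oxygenase Hmox1 (-0.83 ± 0.048, adjusted p = 1.78e-06) and the glutathione-degrading Chac1 (-1.30 ± 0.16, adjusted p = 0.000194) fell. Gstp3 (2.22 ± 0.25, adjusted p = 9.38e-05), Mgst2 (1.57 ± 0.40, adjusted p = 0.00984) and Sesn3 (1.49 ± 0.14, adjusted p = 3e-05) had the largest rises. The Gstp and Gstm genes are close paralogs, so reads may be split between copies and their values are uncertain. Keap1 fell (-0.73 ± 0.13, adjusted p = 0.00144). Bach1 rose (0.44 ± 0.055, adjusted p = 0.000197), a call that was lost without scaling (0.13), while Nfe2l2 was called higher after scaling (0.15 ± 0.044, adjusted p = 0.0193) but stood at -0.16 without it.

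Under IL-10, 11 of the 84 rose and 29 fell against M0, when 13.6% and 13% of all genes did. Cat again fell (-1.30 ± 0.03, adjusted p = 2.46e-08), with Gstm1 (-0.94 ± 0.026, adjusted p = 5.86e-08), Pgd (-0.66 ± 0.036, adjusted p = 2.81e-06) and the autophagy receptor Sqstm1 (-0.66 ± 0.025, adjusted p = 3.51e-07). Of the other NRF2 targets 1 rose and 8 fell, and the one that rose was Hmox1, from 249 ± 4.66 TPM (SD, n = 4) to 432 ± 7.06 TPM (0.77 ± 0.024, adjusted p = 1.02e-07). Mitochondrial Sod2 (0.65 ± 0.06, adjusted p = 7.37e-05), Gsr (0.40 ± 0.052, adjusted p = 0.000614) and Bach1 (0.60 ± 0.056, adjusted p = 8.16e-05) rose too. Slc7a11, the cystine importer that feeds glutathione synthesis, fell at a low level (-0.86 ± 0.087, adjusted p = 0.00013). Between the cytokines, with IFN-γ minus IL-10, 28 rose and 21 fell (15 and 42 without scaling, and 23 and 25 when corrected for GC content and length). The background there was 26.9% and 23.8% of all genes. Hmox1 (-1.60 ± 0.046, adjusted p = 2.11e-08), Gsr (-1.33 ± 0.14, adjusted p = 4.4e-05), Chac1 (-1.35 ± 0.16, adjusted p = 0.000125) and Sesn2 (-0.98 ± 0.081, adjusted p = 1.12e-05) were lower under IFN-γ. Mgst2 (2.20 ± 0.40, adjusted p = 0.0016), Gstp3 (2.08 ± 0.19, adjusted p = 2.54e-05), Txn1 (0.92 ± 0.066, adjusted p = 4.83e-06) and Sod1 (0.88 ± 0.033, adjusted p = 8.29e-08) were higher.

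**Figure D4:**
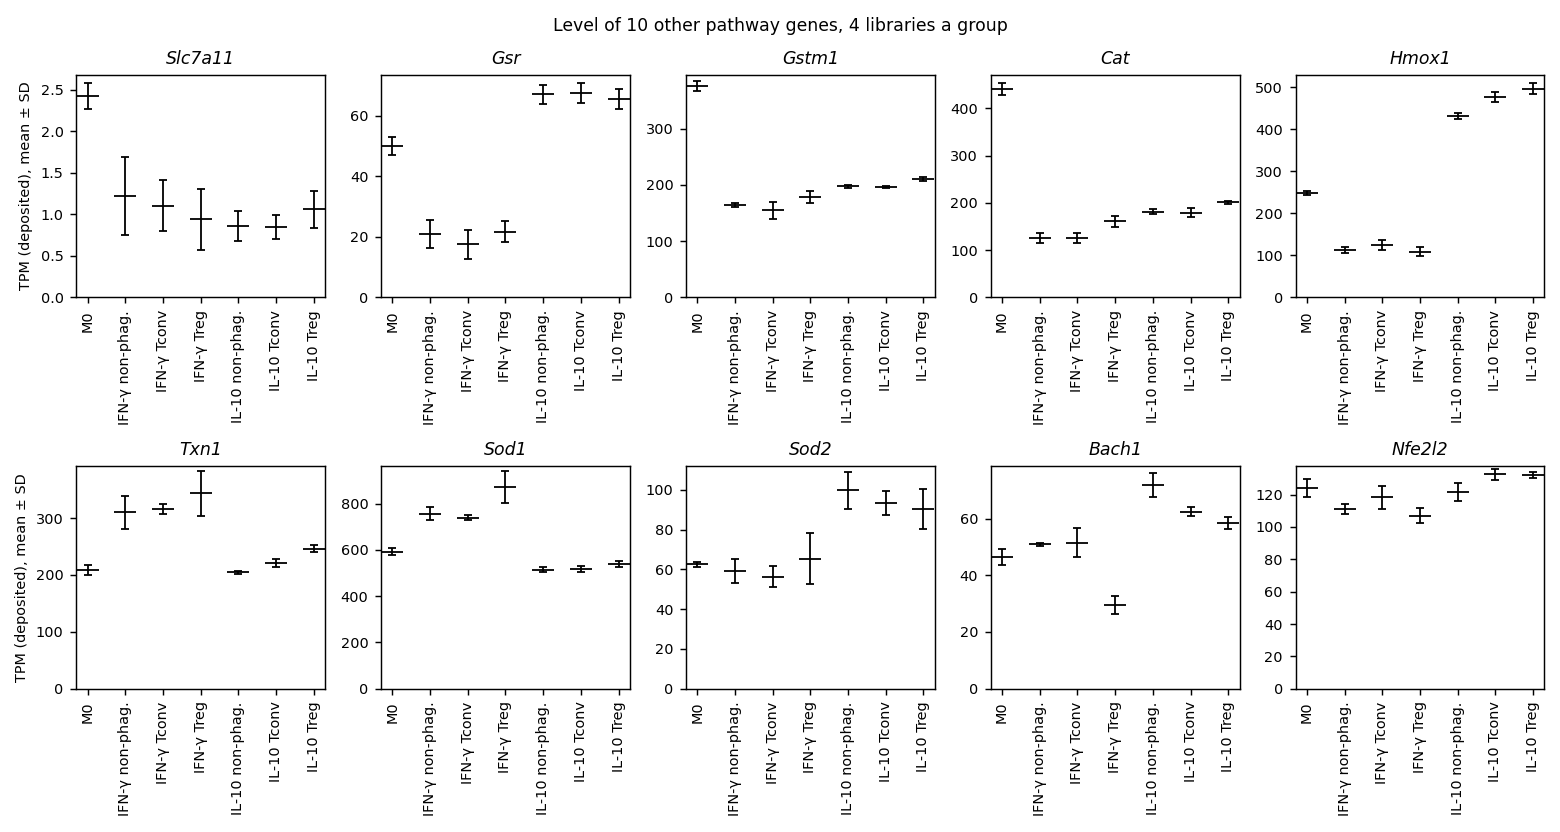
Deposited TPM of 10 other pathway genes (vertical axes, from 0, mean ± SD of 4 libraries) in the 7 groups. Cat is at 442 TPM in M0 and 126 TPM in IFN-γ non-phagocytic libraries, Hmox1 at 432 TPM in IL-10 non-phagocytic libraries, and Bach1 at 29.4 TPM in IFN-γ Treg-phagocytic libraries.

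In IFN-γ Treg- against Tconv-phagocytic libraries 16 of the 84 rose and 4 fell, when 5.16% and 7.38% of all genes did (10 and 4 without scaling, and 17 and 1 when corrected for GC content and length). Bach1, the repressor at the ARE, fell from 51.4 ± 5.12 TPM (SD, n = 4) to 29.4 ± 3.1 TPM (-0.67 ± 0.11, adjusted p = 0.00604), and its call held with any 1 library left out. Of the genes of peroxide and superoxide removal 5 of 9 rose (3 without scaling), among them Cat (0.48 ± 0.074, adjusted p = 0.00562), Prdx5 (0.38 ± 0.055, adjusted p = 0.0045), Sod1 (0.35 ± 0.062, adjusted p = 0.0093) and Prdx3 (0.44 ± 0.10, adjusted p = 0.0244). Of the glutathione transferases 5 of 20 rose and 1 fell. Gstt2 (0.79 ± 0.13, adjusted p = 0.00752), Gstm4 (0.66 ± 0.11, adjusted p = 0.00689) and Gstp1 (0.37 ± 0.058, adjusted p = 0.00559) rose, and Gstcd fell (-0.68 ± 0.18, adjusted p = 0.0411). The selenophosphate synthetase Sephs2 rose (0.46 ± 0.085, adjusted p = 0.0109). Nfe2l2 (-0.025 ± 0.058, adjusted p = 0.833), Keap1 (0.093 ± 0.10, adjusted p = 0.613) and Hmox1 (-0.081 ± 0.094, adjusted p = 0.636) did not pass the test. The 20 calls became 13 without Tconv BV421-2, 11 without Tconv Ax647-1, 12 without Tconv Ax647-2 and 13 without Treg BV421-2. The 4 falls among them became 2 without Treg Ax647-2 and 1 without any other single library. The call was lost in each of the 8 fits that leave out 1 library for Gstcd and in 5 of 8 for Prdx3, which was also lost without scaling. Against non-phagocytic IFN-γ libraries 12 rose and 1 fell in Treg-phagocytic ones, when 2.93% and 5.41% of all genes did (8 calls in all without non-phagocytic replicate 1). The one that fell was Bach1 (-0.71 ± 0.09, adjusted p = 0.00356), and Gstp1 (0.52 ± 0.094, adjusted p = 0.0144), Cat (0.43 ± 0.07, adjusted p = 0.00989), Gstm4 (0.41 ± 0.10, adjusted p = 0.046), Sephs2 (0.41 ± 0.08, adjusted p = 0.0185) and Prdx5 (0.34 ± 0.049, adjusted p = 0.00524) rose. The call of Gstm4 was lost in each of the 8 fits that leave out 1 library, and that of Sephs2 without non-phagocytic replicate 1 or 2. Tconv-phagocytic against non-phagocytic libraries gave 0 calls among the 84 by limma, with 8 at an unadjusted p under 0.05, and 1 call among all genes (0.00734%).

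In IL-10 Treg- against Tconv-phagocytic libraries Txn1 (0.16 ± 0.029, adjusted p = 0.0449) and the ferritin heavy chain Fth1 (0.12 ± 0.021, adjusted p = 0.0291) were called, 2 of the 84 where 0.47% of all genes rose. Neither call was stable. Fth1 lost its call in all 8 fits that leave out 1 library, and Txn1 kept it in 1 of 8. Counted over all 84 genes, the calls were 2 without Tconv BV421-2, 1 without Treg Ax647-1 and 0 without any of the other 6 libraries. These calls included genes other than Txn1 and Fth1. Against non-phagocytic IL-10 libraries, 19 rose and 5 fell in Treg-phagocytic ones (11 and 11 without scaling), when 7.06% and 4.36% of all genes did. The 9 genes of peroxide and superoxide removal gave 6 rises (3 without scaling), with Prdx6 (0.40 ± 0.054, adjusted p = 0.00272) and Cat (0.24 ± 0.024, adjusted p = 0.000834) among them. Txn1 (0.35 ± 0.024, adjusted p = 0.000119), Glrx (0.31 ± 0.064, adjusted p = 0.018), Sesn1 (0.28 ± 0.052, adjusted p = 0.0116) and Hmox1 (0.28 ± 0.025, adjusted p = 0.000388) rose, and Chac1 fell (-0.30 ± 0.058, adjusted p = 0.0144). In Tconv-phagocytic libraries 7 rose and 1 fell (5 and 6 without scaling, and 7 and 4 when corrected for GC content and length), when 4.26% and 1.76% of all genes did. Gstp1 (0.31 ± 0.056, adjusted p = 0.0171), Sesn1 (0.27 ± 0.046, adjusted p = 0.0123), Prdx6 (0.26 ± 0.029, adjusted p = 0.0022), Hmox1 (0.22 ± 0.023, adjusted p = 0.00175) and Nfe2l2 (0.21 ± 0.039, adjusted p = 0.0184, lost without scaling) rose, and Txnip, an inhibitor of thioredoxin, fell (-0.23 ± 0.021, adjusted p = 0.00112).

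**Figure D5:**
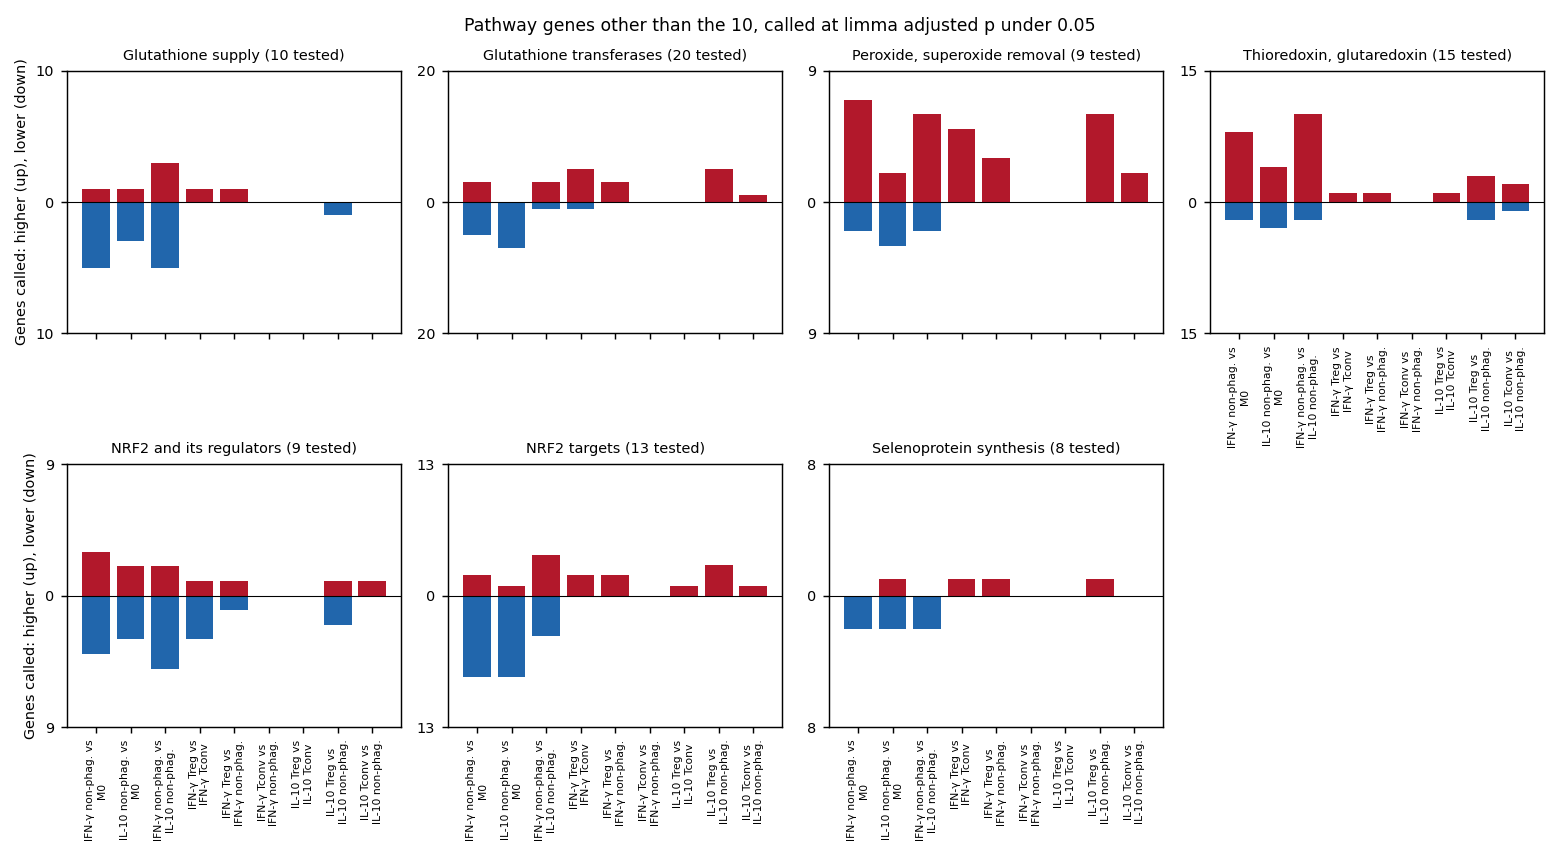
Number of genes in each of 7 pathway lists, without the 10 genes, that were called higher (bars up) or lower (bars down) by limma at adjusted p under 0.05 in 9 comparisons, on a vertical axis of genes. Removal of peroxide and superoxide has 7 of 9 genes higher in IFN-γ non-phagocytic against M0 libraries (4 without scaling), and under IFN-γ Tconv-phagocytic minus non-phagocytic libraries show no call in any list.

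The Treg minus Tconv difference was itself tested between IFN-γ and IL-10. Of the 84 genes 17 were higher and 2 lower under IFN-γ, when 5.51% and 7.92% of all genes were, and without scaling these were 6 and 3. Bach1 differed by -0.58 ± 0.11, adjusted p = 0.00274 and Mafg, a small MAF partner of NRF2 and BACH1, by -0.34 ± 0.08, adjusted p = 0.00986. Gstt2 (0.89 ± 0.16, adjusted p = 0.00166), Gstm4 (0.63 ± 0.12, adjusted p = 0.00216), Prdx5 (0.31 ± 0.063, adjusted p = 0.00338) and Cat (0.31 ± 0.085, adjusted p = 0.0223) differed in the other direction, and the call of Cat was lost without scaling and without the IL-10 Tconv library BV421-2.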

How the data were processed

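Strand-specific poly(A) RNA libraries were made from 28 macrophage samples, per the labels' protocols. STAR, RSEM and the mm10 build are named in the submitters' processing notes, and versions and the strand setting of counting are not given in the sources used here. The deposited values are TPM per Ensembl gene ID, per the file headers, and 55141 of 55487 IDs were matched to a symbol. No library was left out, and 0 of 378 pairs of libraries were identical. TPM were divided by a trimmed mean of ratios (30% of the ratios and 5% of the levels trimmed at each end), and log2(scaled TPM + 1) was fitted with limma 3.58.1 (R 4.3.3, lmFit and eBayes with trend) over the groups compared only, with Benjamini-Hochberg adjustment over 13631 genes. A fold change on this scale understates the change of low genes. The fit was tested on simulated data in which 200 of 13631 genes were altered by a log2 difference of 1. For Treg minus Tconv it found 108 of them under IFN-γ and 180 under IL-10, with 14 and 19 false calls. A model of all 28 libraries found 172 and 154, with 365 and 4 false calls.

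Relative depth was read from low values among 14527 genes with 1 transcript, 666 to 1337 values a library. The spacing was chosen to give the largest share of whole reads to a tolerance of 0.15. That share was 89.2% to 92.6%. A spacing fixed beforehand gives 30% by chance, which is not the chance level of the best spacing. No total count is known, so no counting interval is given. The 10 genes, the pathway and marker lists and the tests were chosen with earlier results of these data known. Named pathway genes were 20 listed by name and, for each comparison, up to 6 called genes with the largest difference, at least 5 TPM in the higher group and no overlap of the groups. Mafg was named after its values were seen. One marker gene is not reported here. Alternatives were the pseudocount, the filter, the scaling, the model, the dye, a replicate block and each library left out. A GC and length correction and a variance weight per group were added after seeing the data. Promoter stretches are RefSeq, GRCm38.p6, and gene positions are GENCODE M21 on mm10.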

Additional observations from a re-analysis of the deposited data

Results flagged for a closer look

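Among 70 sets of 4 libraries (10 genes in 7 groups), 5 held a library far from the other 3, and chance gives about 1 in 20. Gclc was at 10.7 TPM in the IFN-γ Tconv-phagocytic library Ax647-1, where the next was 6.51 TPM. Gclc was at 10.93 TPM in the IL-10 Tconv-phagocytic library BV421-2, where the next was 9.14 TPM. Gsta3 was at 25.41 TPM in M0 replicate 4, where the next was 22.12 TPM, so its level in M0 without that library lies near 22 TPM. Gpx4 was lowest, at 540.11 TPM, in IFN-γ non-phagocytic replicate 3, where the next was 598.34 TPM. Txnrd1 was at 92.41 TPM in IL-10 non-phagocytic replicate 4, where the next was 88.07 TPM.

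For 13 of 33 named pathway genes the Treg minus Tconv difference was not the same under IFN-γ and IL-10 (limma interaction, Benjamini-Hochberg over all genes). Some of the 33 were named for their difference between these groups, so the count is no measure of the pathway, in which 19 of 84 genes were called, against 5.51% (higher) and 7.92% (lower) of all genes. It was lower under IFN-γ for Bach1 (-0.58 ± 0.11, adjusted p = 0.00274). It was higher under IFN-γ for Gstt2 (0.89 ± 0.16, adjusted p = 0.00166), Chac1 (0.83 ± 0.20, adjusted p = 0.0107), Gstm4 (0.63 ± 0.12, adjusted p = 0.00216), Sesn2 (0.50 ± 0.12, adjusted p = 0.0119), Sephs2 (0.39 ± 0.10, adjusted p = 0.0119) and Prdx3 (0.39 ± 0.11, adjusted p = 0.0333). It was also higher for Gstp1 (0.36 ± 0.10, adjusted p = 0.0192), Prdx5 (0.31 ± 0.063, adjusted p = 0.00338), Cat (0.31 ± 0.085, adjusted p = 0.0223), Sod1 (0.29 ± 0.07, adjusted p = 0.0105), Fth1 (0.21 ± 0.04, adjusted p = 0.0024) and Sqstm1 (0.20 ± 0.051, adjusted p = 0.0161). Without scaling the calls of Cat, Fth1, Gstp1, Prdx3, Sephs2, Sod1 and Sqstm1 were lost, and Prdx3 kept its call in 5 of the 16 fits that leave out 1 library.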

How the results depend on the processing

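Counts of called pathway genes moved by over 1.5 times as follows. With no filter on low values, IFN-γ Treg against Tconv gave 12 in place of 20, Treg against non-phagocytic 8 in place of 13, IL-10 Treg against Tconv 1 in place of 2, and against non-phagocytic libraries 13 (Treg, in place of 24) and 5 (Tconv, in place of 8). One model of all 28 libraries gave 42, 33, 0, 14 and 4 in that order. A variance weight per group gave 20 for IFN-γ Treg against non-phagocytic, 6 for IL-10 Treg against Tconv and 17 for IL-10 Tconv against non-phagocytic libraries. For IL-10 Treg against Tconv a pseudocount of 0.1 gave 1 and the library-name dye as covariate gave 1. Without scaling the test between the cytokines gave 9 in place of 19. Leaving out 1 library gave 11 to 17 for IFN-γ Treg against Tconv, 8 to 12 for Treg against non-phagocytic and 0 to 2 for IL-10 Treg against Tconv.

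Correlations of deviations between libraries of the same replicate number were under 0.1 for every pair. The highest was 0.0851, for replicate 1 of the IL-10 non-phagocytic and M0 libraries. The same-number library was the best match for most pairs in both comparisons with M0 and in IFN-γ Treg against Tconv by title dye. It was not the best match for any pair in IL-10 Treg against Tconv, and the remaining pairings were mixed. Whether the numbers pair the samples was not tested. With a replicate block, IFN-γ Treg against Tconv gave 11 (title dye) or 13 (library-name dye), IL-10 Treg against Tconv 0 by either, and the comparisons of M0 and non-phagocytic groups 45, 36 and 46 in place of 52, 40 and 49. No paired analysis was possible for phagocytic against non-phagocytic groups because their numbers do not match.

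Without scaling the sign of IFN-γ non-phagocytic minus M0 turned for Gpx4 (-0.17), Mgst1 (-0.19), Nfe2l2 (-0.16), Prdx6 (-0.076) and Sod2 (-0.085), and of IFN-γ minus IL-10 for Gpx4 (-0.21), Gclm (-0.18), Gstm1 (-0.26), Gstp1 (-0.27), Mgst1 (-0.30), Nfe2l2 (-0.13) and Txnip (-0.17). The GC and length correction turned Gpx4 (-0.14) and Mgst1 (-0.35) against M0, and Gstm1 (-0.13) and Mgst1 (-0.40) against IL-10. Of the 10 genes, 5 then lay above 0 and 5 below against IL-10, where 6 and 4 did after scaling alone. The causes were not tested. Shallow IFN-γ libraries limit low genes such as Nqo1 most.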
